A study of Mus musculus with 18 samples.

Results

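The steady-state response of AT3 cells to A-241 was examined in 6 of the 18 libraries of the study, namely 3 libraries of cells treated with A-241 and 3 of cells treated with DMSO, all without IFNγ. These libraries were chosen by their labels alone. AT3 is a mouse mammary carcinoma cell line that the study uses as a model of triple-negative breast cancer. The A-241 group received 250 nM of the compound for 3 h and the DMSO group received the solvent over the same time, and the labels name no genetic change in either. RNA was measured by QuantSeq, a 3′ mRNA sequencing method that yields reads near the end of each transcript. The other 12 libraries come from the same cells with A-485 (1000 nM), with IFNγ (1 ng/mL, for the last 2 of the 3 h), or with IFNγ after A-241 or A-485. The replicates are technical by the series' description but biological by the labels of the samples, and n therefore counts libraries, whose spread, possibly technical, is all that the p-values measure.

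A-241 is an inhibitor of the catalytic domain of P300 and CBP. These paralogous acetyltransferases are brought to enhancers and promoters by transcription factors, where they acetylate histones, among them lysines of histone H3 that mark active enhancers, and many factors themselves. Acetyl-lysine is read by bromodomain proteins, which are linked to the release of paused RNA polymerase II. Genes under the control of large enhancers, often those of transcription factors and signalling proteins with short-lived transcripts, are known to be sensitive to loss of this activity.

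Between 3417167 and 6145972 counts were obtained for each of the 6 libraries, both from the DMSO group. DMSO replicate 3 stood apart from the others. It had the lowest depth, Gm42418, a gene that overlaps ribosomal RNA sequence, took 20.1% of its counts against 7.11% to 15.2% in the other 5 libraries, and its root mean square deviation from the group mean was 0.73 on the log2 scale, against 0.40 and 0.51 in the other DMSO libraries and 0.23 to 0.27 with A-241. Mitochondrial transcripts took between 1.47% and 2.23% of the counts. All pairs of libraries of the same group differed by more than the sampling noise, so each was counted as 1 sample. The labelled tissue was checked against marker genes. Summed over each whole list, markers of luminal epithelium had between 864 and 1438 CPM (counts scaled to a library total of 1000000), those of basal epithelium between 454 and 1358, and those of mesenchyme between 928 and 1777, with Oxtr among the basal and Col1a2 and Lum among the mesenchymal markers at 0. Markers of leucocytes summed to between 5.04 and 18.1 CPM, with Adgre1 among those at 0, and those of endothelium to between 1.46 and 3.30 CPM, with Cdh5, Cldn5, Emcn, Tek and Vwf at 0. The summed basal markers were lower in every A-241 library (454 to 551 CPM) than in every DMSO library (891 to 1358 CPM), and 3 of the 7 tested fell, namely Trp63, Krt14 and Krt17. The luminal and mesenchymal sums of the groups overlapped, DMSO replicate 3 being the lowest of its group in both. The sums were scaled by library totals alone, of which Gm42418 took the largest share in that library. Of 9 luminal markers tested 2 fell, Ehf and Krt18, and of 8 mesenchymal markers 2 fell, Fn1 among them. The part of cell composition in the results was not tested.

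Differential expression was tested for 11964 genes with the quasi-likelihood test of edgeR over all 18 libraries, and genes were called at a Benjamini-Hochberg adjusted p under 0.01. A-241 lowered 422 genes (3.53% of those tested) relative to DMSO, and 99 (0.827%) were raised. The decreases were also the larger changes. Of the lower genes, 366 fell by more than 1 on the log2 scale and 154 by more than 2, and their median was -1.65 (quartiles -2.40 and -1.20). Among the higher genes 61 rose by more than 1 and 6 by more than 2, with a median of 1.10 (quartiles 0.90 and 1.33). The median over all genes tested was 0.01, and 0.12 when libraries were scaled by total counts in place of TMM factors. Both scalings are relative within a library. A fall shared by most genes would therefore not show in this median, and all changes given here are relative to the other genes. The direction of the imbalance held under every way of fitting that was tried, but the counts depended on the libraries and on the model. With 1 of the 6 libraries left out, between 224 and 401 genes were lower and between 25 and 58 were higher, the lowest counts being those without A-241 replicate 1. A fit of these 6 libraries on their own called 74 lower and 1, Hexim1, higher. In bulk RNA, a lower level in every cell and a smaller number of cells that express a gene cannot be told apart.

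**Figure D1:**
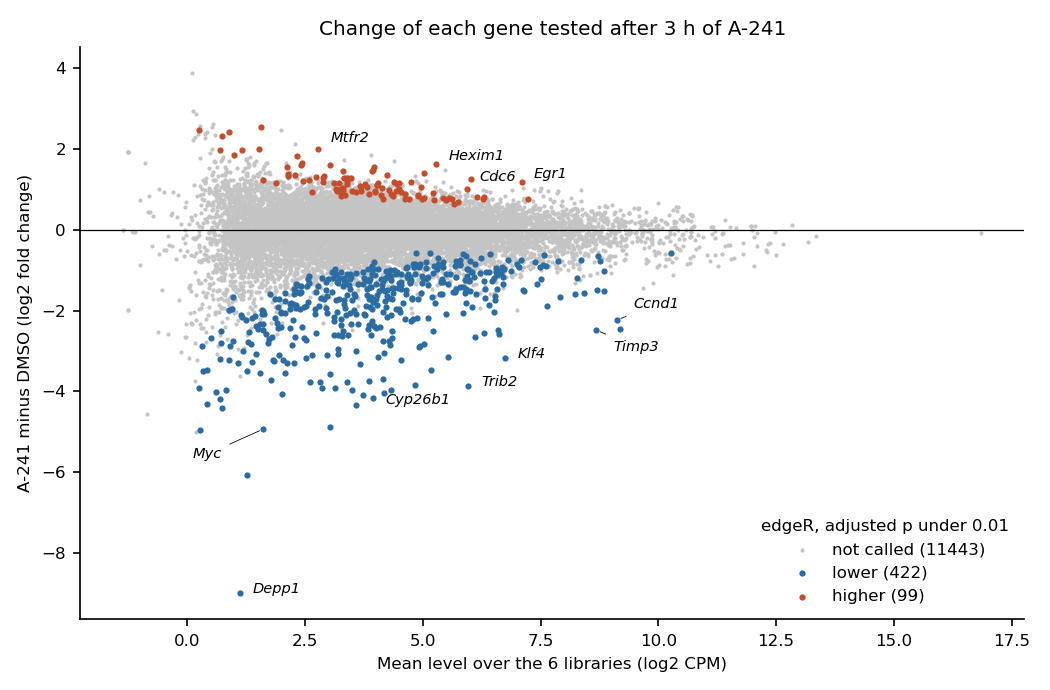
Change of each of the 11964 genes tested, A-241 minus DMSO as log2 fold change (vertical axis), against its mean level over the 6 libraries in log2 CPM (horizontal axis). Blue points are the 422 genes called lower, red points the 99 called higher and grey points the genes not called. Decreases reach beyond -4 over a range of levels, whereas no called increase exceeds 2.55, and Depp1, without counts in the A-241 libraries, is drawn at a fitted value that is no bound.

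The 20 largest decreases, among genes with a mean of at least 50 counts in the group with more, held genes of several functions. They included Depp1, and with log2 fold changes from -4.93 to -3.70 Myc, Lrrc75b, Cyp26b1, Cxcl5, Sostdc1, Aqp5, Tns4, Tle3, Fst, Trpv6, Trib2, Ehf, Palmd, Il34, Osr1, Synpo and Thbs1. Depp1, which lies on chromosome 6 of GRCm38 from 116650609 to 116652794, had 74, 89 and 21 counts in the DMSO libraries and none in any A-241 library. Against the 3 counts per library that a count of 0 allows, its level with A-241 was lower by at least 19.5-fold (edgeR adjusted p = 1.71e-05). No A-241 library therefore held a read of this gene, and the size of its fall is not known beyond that bound, which, like all such bounds and intervals here, covers counting error only. Trib2, a pseudokinase, was far more deeply covered. Its level was 276, 193 and 248 normalised CPM in the DMSO libraries and 18.5, 14.4 and 15.98 with A-241, a log2 fold change of -3.87 (SE, the standard error, 0.23, edgeR adjusted p = 5.68e-08).

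Many transcription factors were among the genes that fell. The gene lists used from here on were written with earlier results of these data known. Their counts stand beside the 3.53% of all genes tested that were lower and the 0.827% that were higher. Of 75 developmental transcription factors, 48 had enough counts to be tested. Among them 17 fell and 0 rose (3 were higher at an unadjusted p under 0.05, and DESeq2 and limma-voom called 0), and the median log2 fold change of the list was -1.12. Ehf, an ETS factor of epithelial cells that was not on this list, had 84.8, 94.5 and 148 normalised CPM with DMSO and 5.04, 7.59 and 10.1 with A-241. Runx1, which shares exon bases with Gm26626, went from 45.9, 42.1 and 55.2 normalised CPM to 4.83, 5.596 and 5.68. In both genes the lowest DMSO library was many times above the highest A-241 library, and the log2 fold changes were -3.84 (SE 0.28, edgeR adjusted p = 2.26e-07) and -3.14 (SE 0.22, edgeR adjusted p = 1.75e-07). The log2 fold changes of the zinc finger factors Osr1, also not on the list, and Klf3 and of Sox4 were -3.76, -2.60 and -2.02. These factors were called with any 1 of the 6 libraries left out, while Foxq1, with 20, 29 and 11 counts with DMSO and 0, 1 and 2 with A-241, lost its call with each library left out, such as A-241 replicate 1 (edgeR adjusted p = 0.0443).

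Myc, on chromosome 15 from 61985391 to 61990374, encodes a factor that drives growth and ribosome production in complex with MAX. Its counts were 42, 66 and 63 with DMSO and 2, 4 and 0 with A-241, which corresponds to 8.83, 10.4 and 21.7 and 0.4196, 0.799 and 0 normalised CPM. Every DMSO library was far above every A-241 library, DMSO replicate 3 was the highest, and the log2 fold change was -4.93 (SE 0.64, edgeR adjusted p = 0.000115). Within its network of partners and antagonists, 2 of the 10 members tested fell (20%, against 3.53% of all genes tested) and 1 rose (10%, against 0.827%). Mnt, a repressor that binds MAX, fell by 2.13 (edgeR adjusted p = 0.00436) but was no longer called after omission of any 1 of 4 libraries, such as A-241 replicate 3 (edgeR adjusted p = 0.0285). Mxd1, another partner of MAX that opposes MYC, was higher, with 5.47, 3.62 and 4.48 normalised CPM with DMSO and 14.7, 10.2 and 16.2 with A-241 (log2 fold change 1.601, SE 0.32, edgeR adjusted p = 0.00469). Its call was lost with any 1 of 5 libraries left out, such as A-241 replicate 3 (edgeR adjusted p = 0.026).

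Immediate early genes, which cells switch on within minutes of a signal, were divided. Of 21 tested, 3 fell and 1 rose, and the median was 0.14. Klf4, a zinc finger factor of epithelia, had 242, 159 and 662 normalised CPM with DMSO and 40.3, 34.4 and 43.5 with A-241. The log2 fold change was -3.17 (SE 0.57, edgeR adjusted p = 0.00203), DMSO replicate 3 was far above the other DMSO libraries, and the call was lost with any A-241 library left out, such as A-241 replicate 2 (edgeR adjusted p = 0.0159). Klf6 fell by 1.06 (edgeR adjusted p = 0.000286) and Ier3, an early response gene of cell survival, by 1.21, its call being lost with any 1 of 5 libraries left out, such as A-241 replicate 1 (edgeR adjusted p = 0.0218). The level of Egr1, a zinc finger factor induced by mitogens, was 72.6, 89.5 and 112 normalised CPM with DMSO and 192, 219 and 213 with A-241. It thus rose in all A-241 libraries relative to all DMSO libraries, by 1.18 on the log2 scale (SE 0.19, edgeR adjusted p = 0.000793). The median of this list changed sign without DMSO replicate 3 (-0.03).

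**Figure D2:**
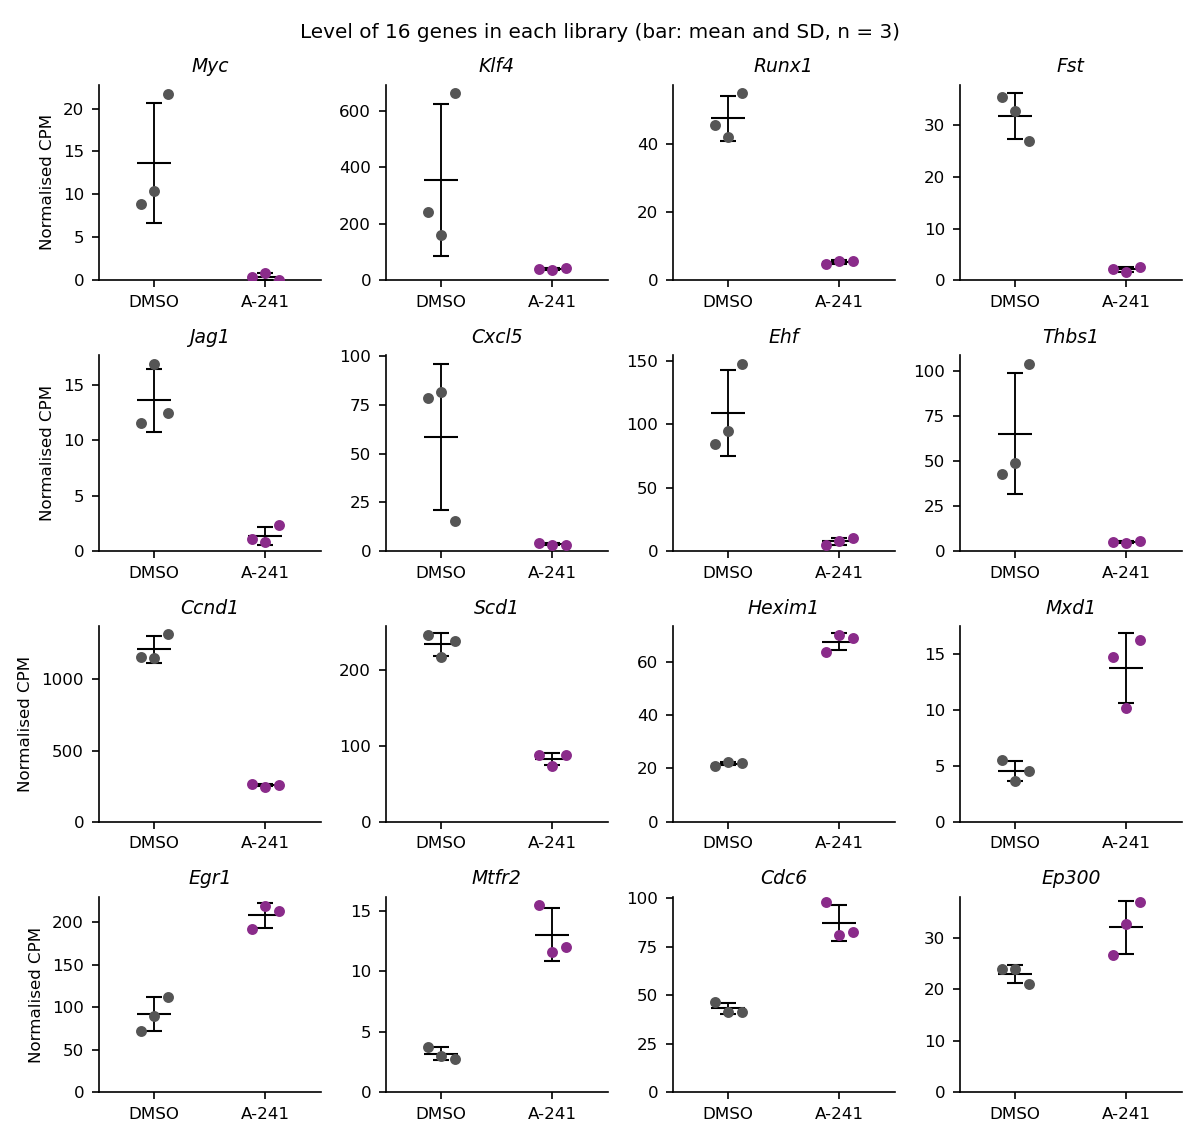
Normalised CPM (vertical axis, from 0) of 16 genes in each of the 3 DMSO and 3 A-241 libraries, 1 point per library, with the mean and SD of each group. The A-241 libraries lie below the DMSO libraries from Myc to Scd1 and above them from Hexim1 to Ep300, of which Ep300 was not called.

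Taken over several pathways, the signalling genes that fell included ligands, antagonists, receptors and target genes, but not all of these in each pathway. Of the TGFβ and BMP list, the receptor genes tested were Acvr1, Bmpr1a, Tgfbr1 and Tgfbr2, and none was called. With 3.53% of all genes tested lower, so few genes would hold few calls, if any. In the TGFβ and BMP pathway 9 of 30 members tested fell and 0 rose (1 was higher at an unadjusted p under 0.05, and DESeq2 and limma-voom called 0), with a median of -0.79. Fst encodes follistatin, a secreted protein that binds activins, and Sostdc1 a secreted antagonist of BMPs. Fst had 35.5, 32.8 and 26.9 normalised CPM with DMSO and 2.098, 1.599 and 2.52 with A-241, and Sostdc1 had 16.4, 13.2 and 12.8 and 0.2098, 0.999 and 1.26. The log2 fold changes of these antagonists were -3.93 (SE 0.28, edgeR adjusted p = 1.8e-07) and -4.06 (SE 0.31, edgeR adjusted p = 4.23e-07). Among the ligands, Inhbb, a subunit of activins and inhibins, fell by 2.61 and Tgfb2 by 2.16. Id4, one of the ID proteins that bind basic helix-loop-helix factors and respond to BMPs, fell by 2.75. All 5 of these genes were called with any library left out.

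In the Notch pathway 4 of 14 members tested fell and 0 rose (0 were higher at an unadjusted p under 0.05, and by DESeq2 and limma-voom), with a median of -0.64. The ligand Jag1 had 11.6, 16.9 and 12.4 normalised CPM with DMSO and 1.05, 0.799 and 2.31 with A-241. Levels of the receptor Notch1, which shares exon bases with 0610009E02Rik and Gm13568, were 53.6, 43.2 and 60.3 normalised CPM and 6.504, 6.595 and 8.41. Both were lower in every A-241 library, by 3.29 (SE 0.44, edgeR adjusted p = 0.000146) and 2.86 (SE 0.22, edgeR adjusted p = 4e-07) on the log2 scale. The target gene Hey1 fell by 2.06 and Lfng, a glycosyltransferase that modifies Notch, by 3.09, and both calls were lost with any 1 of 4 libraries left out, such as A-241 replicate 1 for Hey1 (edgeR adjusted p = 0.0234) and A-241 replicate 1 for Lfng (edgeR adjusted p = 0.027). Rbpj, the DNA-binding partner of Notch, did not pass the threshold (log2 fold change -0.61, adjusted p = 0.0167, edgeR).

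Of 24 Wnt pathway genes tested, 5 fell and 0 rose (1 was higher at an unadjusted p under 0.05, and DESeq2 and limma-voom called 0), with a median of -0.69. Tle3, a Groucho co-repressor of TCF factors, had 41.9, 37.7 and 50.7 normalised CPM with DMSO and 3.57, 3.198 and 1.47 with A-241 (log2 fold change -3.96, SE 0.29, edgeR adjusted p = 2.24e-07). Nkd2, an inhibitor that binds Dishevelled, fell by 2.57, the receptor Fzd7 by 2.69 and the ligand Wnt7b by 1.57. The members that fell thus included a ligand, a receptor, an inhibitor and a co-repressor, and the fifth was the factor Tcf7l2. Among YAP-TEAD target genes 4 of 23 fell, namely Fjx1, Tead4, Tgfb2 and Asap1 (limma-voom called 1 and DESeq2 6), and 0 rose (0 were higher at an unadjusted p under 0.05, and by DESeq2 and limma-voom), with a median of -0.56.

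Receptor tyrosine kinases and the ligands of growth factor receptors had medians of -0.95 and -0.93. Of 25 kinases tested 6 fell and 0 rose (3 were higher at an unadjusted p under 0.05, and DESeq2 and limma-voom called 0). Met, the receptor for hepatocyte growth factor, had 28.4, 24.3 and 29.3 normalised CPM with DMSO and 14.5, 12.99 and 11.6 with A-241, a log2 fold change of -1.06 (SE 0.17, edgeR adjusted p = 0.000763). Ephb3, an ephrin receptor, fell by 1.45 (edgeR adjusted p = 0.00056). Among 14 ligands, Edn1 (endothelin 1) and Pdgfa fell, and Hbegf, a ligand of the EGF receptor, rose from 19.6, 13.1 and 20.7 to 45.7, 35.97 and 39.3 normalised CPM (log2 fold change 1.19, adjusted p = 0.00144, edgeR). The call of Hbegf was lost without A-241 replicate 1 (edgeR adjusted p = 0.0105), and that of Pdgfa with any 1 of 5 libraries left out, such as A-241 replicate 1 (edgeR adjusted p = 0.0312). Feedback genes of the ERK pathway had a median of -0.09, which turned positive with total counts in place of TMM factors (0.01). Of 12 tested 2 fell (16.7%, against 3.53% of all genes tested), Phlda1 (log2 fold change -2.20) and the phosphatase gene Dusp16.

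Among 13 chemokines and cytokines with enough counts, 4 fell and 0 rose (0 were higher at an unadjusted p under 0.05, and by DESeq2 and limma-voom). Their median of -1.63 was the lowest of all lists. Cxcl5, a chemokine that attracts neutrophils, had 78.7, 81.4 and 15.5 normalised CPM with DMSO and 4.196, 2.998 and 3.15 with A-241. DMSO replicate 3 was well below the other DMSO libraries but above all A-241 libraries. The log2 fold change was -4.09 (SE 0.72, edgeR adjusted p = 0.00174), and the call was lost with any 1 of the A-241 libraries left out, such as A-241 replicate 2 (edgeR adjusted p = 0.0149). Il34 and Csf1 both encode ligands of the CSF1 receptor of macrophages. Il34, which shares exon bases with Gm15894 and Gm15895, fell from 22.1, 11.5 and 44.1 normalised CPM to 1.26, 2.598 and 1.68, and Csf1 from 10.9, 12.9 and 15.9 to 4.196, 4.397 and 3.99. The log2 fold change was -3.76 (SE 0.58, edgeR adjusted p = 0.000536) for Il34 and -1.64 (SE 0.20, edgeR adjusted p = 6.81e-05) for Csf1. Cxcl12 fell by 2.78, and its call was lost without A-241 replicate 1 (edgeR adjusted p = 0.0133) or A-241 replicate 2. Interferon-responsive genes gave 0 calls among 35 tested with edgeR and limma-voom and 1 with DESeq2, which was lower. Of all genes tested 3.53% were lower and 0.827% higher, so a list of this size would hold few calls at these shares. At an unadjusted p under 0.05, 5 of the interferon-responsive genes were lower and 4 higher, and their median was 0.09.

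**Figure D3:**
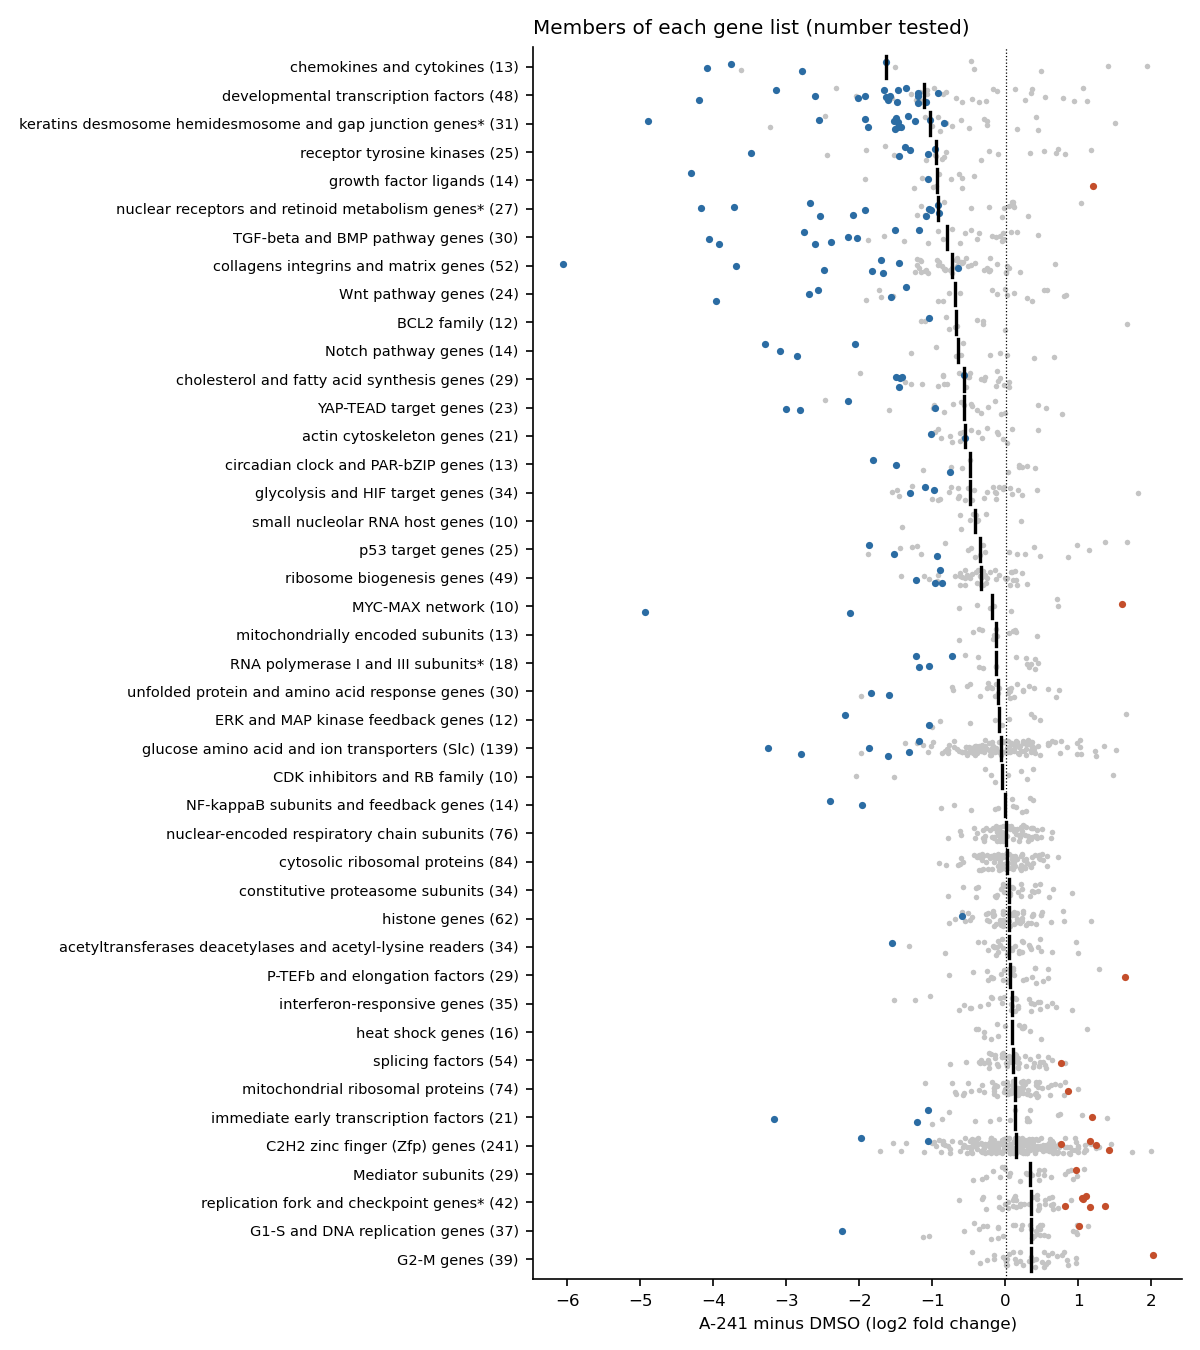
Log2 fold change (horizontal axis, A-241 minus DMSO) of each member of 43 gene lists, 1 point per gene, with the number tested in brackets and the lists ordered by their median (black bar). Blue and red points are genes called lower and higher, and the dotted line is the median of all genes tested. Lists with an asterisk were chosen after their values were seen, and the others with earlier results of these data known. Chemokines, developmental factors and signalling lists lie to the left, whereas lists of ribosomal proteins, respiratory chain subunits and the proteasome centre on 0.

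Genes of the cell surface, the matrix and epithelial structure formed another part of the decrease. Among collagens, integrins and other matrix genes 8 of 52 fell and 0 rose (0 were higher at an unadjusted p under 0.05, and by DESeq2 and limma-voom), with a median of -0.73. Has2, which synthesises hyaluronan and shares exon bases with its antisense gene Has2os, had 49, 65 and 35 counts with DMSO and 0, 1 and 1 with A-241. From these 149 and 2 counts the ratio was 77.3, with a 95% exact counting interval of 21.0 to 644 (edgeR adjusted p = 9.64e-08). Thbs1 encodes thrombospondin 1 and Timp3 an inhibitor of metalloproteinases. Thbs1 had 42.7, 48.7 and 104 normalised CPM with DMSO and 5.04, 4.397 and 5.47 with A-241. Timp3, which overlaps Syn3, had 975, 892 and 1055 and 166, 191 and 166. Both fell in every A-241 library, by 3.70 (SE 0.30, edgeR adjusted p = 9.25e-07) and 2.48 (SE 0.13, edgeR adjusted p = 2.6e-08). Fn1 (fibronectin) fell by only 0.65 (edgeR adjusted p = 0.00782), and with any 1 of 5 libraries left out it was not called, such as A-241 replicate 1 (edgeR adjusted p = 0.0443).

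A list of keratins and junction proteins, chosen after their values were seen, had 14 of 31 members lower and a median of -1.03. Trp63, the p63 factor of basal epithelium, fell by 2.36 (edgeR adjusted p = 0.000125). Krt14, a basal keratin, had 604, 506 and 1023 normalised CPM with DMSO and 223, 282 and 251 with A-241 (log2 fold change -1.496), Krt6a fell by 1.88, Krt17 by 1.33 and the luminal keratin Krt18 by 0.84. These 4 keratin calls were lost without A-241 replicate 1 (edgeR adjusted p between 0.0127 and 0.0169), and also without A-241 replicate 3. Cdh1 (E-cadherin) had 792, 622 and 317 normalised CPM with DMSO and 544, 401 and 439 with A-241, so that the groups overlapped. Tns4, a tensin of focal adhesions, fell by 3.97, the water channel Aqp5 by 4.05 and the calcium channel Trpv6 by 3.92, all called with any library left out.

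Nuclear receptors and genes of retinoid metabolism, a list also chosen after its values were seen, had 11 of 27 members lower and a median of -0.93. Cyp26b1, which degrades retinoic acid, had 103, 65.7 and 33.1 normalised CPM with DMSO and 6.08, 2.398 and 2.73 with A-241. Vdr, the vitamin D receptor, had 149.5, 138 and 298 and 29.4, 37.2 and 33.4. In each gene the groups were far apart although the DMSO libraries varied, and the log2 fold changes were -4.17 (SE 0.44, edgeR adjusted p = 1.51e-05) and -2.54 (SE 0.29, edgeR adjusted p = 3.41e-05). The retinoic acid receptor gene Rara fell by 3.72, with a call that was lost without A-241 replicate 1 or 2 (highest edgeR adjusted p = 0.0144), and the co-activator gene Ppargc1a by 2.68.

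Genes of growth and metabolism divided. Of 29 genes of cholesterol and fatty acid synthesis, 5 fell and 0 rose (0 were higher at an unadjusted p under 0.05, and by DESeq2 and limma-voom), with a median of -0.57. Scd1, a desaturase of fatty acids, had 246, 216 and 239 normalised CPM with DMSO and 87.3, 73.3 and 87.2 with A-241, a log2 fold change of -1.499 (SE 0.16, edgeR adjusted p = 1.65e-05). Scd2 fell by 1.46, the elongase Elovl6 by 1.44 and Sqle, which catalyses an early step of sterol synthesis, by 1.42, while the fatty acid synthase Fasn did not pass the threshold (log2 fold change -0.93, adjusted p = 0.0436, edgeR). Of 34 glycolysis and HIF target genes 3 fell (8.82%, against 3.53% of all genes tested), and the median was -0.48. They were Ndrg1 (-1.30), the hexokinase Hk2 (-1.10) and the enolase Eno1 (-0.98), whose call was lost with each library left out, such as A-241 replicate 1 (edgeR adjusted p = 0.0307). Ribosome biogenesis genes had a median of -0.33 with 4 of 49 lower (8.16%, while limma-voom called 2 and DESeq2 6). These were Rrp1b, Gnl3, Polr1b, a subunit of RNA polymerase I (-1.22), and the nucleolar protein Nolc1 (-0.87). The call of Polr1b was lost with any 1 of 3 libraries left out, such as A-241 replicate 3 (edgeR adjusted p = 0.0162), and that of Nolc1 with any 1 of 4, such as A-241 replicate 1 (edgeR adjusted p = 0.0179). Of 84 cytosolic ribosomal protein genes, 0 were called with edgeR, DESeq2 or limma-voom (4 were lower and 0 higher at an unadjusted p under 0.05). The same tools called 0 of 76 nuclear-encoded respiratory chain subunits (1 lower, 0 higher at an unadjusted p under 0.05) and 0 of 34 proteasome subunits (0 lower, 1 higher). With 3.53% of all genes tested lower and 0.827% higher, lists of these sizes would hold few calls at the same shares. The medians of these 3 lists lay between 0.01 and 0.05, and the sign of the first 2 changed with size factors of DESeq2 in place of TMM factors (-0.01 and -0.02).

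Cell cycle genes were mostly not called, as were 95.6% of all genes tested. Ccnd1, which encodes cyclin D1 and shares exon bases with LTO1, was the gene of G1 and S phase that edgeR and limma-voom called lower (DESeq2 called 2). It lies on chromosome 7 from 144929931 to 144939925, and its level was 1161, 1152 and 1322 normalised CPM with DMSO and 266, 247 and 259 with A-241. The libraries of each group were close to each other, and the log2 fold change of -2.23 (SE 0.14, edgeR adjusted p = 7.52e-08) stayed between -2.27 and -2.16 with 1 library left out. Among 37 such genes Cdc6, which loads the replicative helicase, was the one called higher by edgeR and limma-voom (DESeq2 called 4), from 46.7, 41.6 and 41.4 to 97.8, 81.1 and 82.4 normalised CPM (log2 fold change 1.01, SE 0.15, edgeR adjusted p = 0.000487). The share called was 2.7% in each direction, against 3.53% lower and 0.827% higher of all genes tested. At an unadjusted p under 0.05, 11 were higher and 3 lower, and the median of the list was 0.35. Of 39 genes of G2 and mitosis 1 rose (2.56%) and 0 fell, with a median of 0.36. At an unadjusted p under 0.05, 11 were higher and 0 lower, and DESeq2 and limma-voom called 0 lower. Top2a had 1065, 904 and 987 normalised CPM with DMSO and 1096, 1055 and 1040.3 with A-241. The gene that rose was Mtfr2, for a regulator of mitochondrial fission, with 18, 19 and 8 counts with DMSO and 74, 58 and 57 with A-241 (log2 fold change 2.02, SE 0.27, edgeR adjusted p = 0.00015).

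The 15 largest increases by the same count minimum ranged from 1.28 to 2.02. They were Mtfr2, Hexim1, Mxd1, Asb1, C2cd2l, Sdr42e1, Rabl2, Zfp335, Dna2, Hook1, Nedd1, Papolg, Fbxo21, Wdr47 and Cpeb4. Hexim1 encodes the protein that, with 7SK RNA, holds the elongation kinase P-TEFb inactive, and it lies on chromosome 11 from 103116231 to 103119725. Its level was 21.03, 22.2 and 22.1 normalised CPM with DMSO and 63.8, 70.1 and 68.7 with A-241. With tight groups on both sides, the rise of 1.63 on the log2 scale (SE 0.14, edgeR adjusted p = 1.63e-06) lay between 1.61 and 1.68 with 1 library left out. It was the 1 gene called among 29 of P-TEFb and elongation factors with edgeR (DESeq2 called 2), which is 3.45% against 0.827% higher of all genes tested. At the shares of all genes a list of 29 would hold few calls, and the median of this list was 0.07.

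Mtfr2, Hexim1, C2cd2l, Dna2 and Cpeb4 of these 15 genes kept their call with any library left out. Cpeb4, an RNA-binding protein that regulates translation, had 5.68, 7.72 and 6.21 normalised CPM with DMSO and 14.7, 18.4 and 14.9 with A-241. Dna2, a nuclease and helicase of DNA replication and repair, had 10.3, 10.2 and 14.1 and 30.00, 30.4 and 27.96. Both rose in all A-241 libraries, by 1.28 (SE 0.20, edgeR adjusted p = 0.000536) and 1.36 (SE 0.19, edgeR adjusted p = 0.000167). The other 10 were less stable. Asb1 lost its call without A-241 replicate 1 only (edgeR adjusted p = 0.0195), Hook1 and Wdr47 without A-241 replicate 2 (edgeR adjusted p = 0.0136 and 0.0158) or 1 of the DMSO libraries, and Mxd1, Sdr42e1, Rabl2, Zfp335, Nedd1, Papolg and Fbxo21 with at least 4 of the 6 libraries left out in turn (highest edgeR adjusted p of each between 0.016 and 0.0556). Several of them had lower levels in DMSO replicate 3 than in the other DMSO libraries, such as Rabl2 with 12.2, 10.2 and 4.83 normalised CPM against 26.6, 27.2 and 23.3 with A-241. A list of replication fork and checkpoint genes, chosen after its values were seen, had 6 of 42 members higher (14.3%, against 0.827% of all genes tested). Its median was 0.35. Dna2, Slf1 (1.16) and Clspn (0.82), which encodes claspin, were called with any library left out, but Tipin (1.06) was not called with any library left out, such as A-241 replicate 1 (edgeR adjusted p = 0.0337).

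The genes of the targeted enzymes were not called. Ep300 had 23.98, 23.9 and 21.03 normalised CPM with DMSO and 26.6, 32.6 and 36.8 with A-241, and Crebbp had 82.9, 69.9 and 82.4 and 87.5, 103 and 109. The log2 fold changes were 0.47 (SE 0.15, edgeR adjusted p = 0.0611) for Ep300 and 0.35 (SE 0.14, edgeR adjusted p = 0.146) for Crebbp, and neither passed the threshold. Of 34 acetyltransferases, deacetylases and acetyl-lysine readers, 1 fell (2.94%, against 3.53% of all genes tested) and 0 rose (7 were higher at an unadjusted p under 0.05, and DESeq2 called 2 and limma-voom 0). Brd2, which encodes a bromodomain protein and shares exon bases with H2-DMa, had 291, 285 and 143 normalised CPM with DMSO and 596, 394 and 438 with A-241, without passing the threshold (edgeR adjusted p = 0.0339). With edgeR, 1 of 29 Mediator subunits was called, Med15 (0.97, where DESeq2 called 2), and 1 of 54 splicing factors, Srsf6 (0.76). Both were higher, which is 3.45% and 1.85% of these lists. With 0.827% of all genes tested higher and 3.53% lower, lists of these sizes would hold few calls. Both calls were lost with any 1 of at least 4 libraries left out, such as A-241 replicate 3 (edgeR adjusted p = 0.0166) and A-241 replicate 1 (edgeR adjusted p = 0.0188).

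The genes called lower had the greatest median length of the 3 classes. It was 35.9 kb (quartiles 12.2 and 112), 22.0 kb among those called higher (quartiles 12.1 and 42.2) and 19.1 kb among those not called (quartiles 6.22 and 47.4). Since the level of a gene limits whether it can be called, lengths were also compared within terciles of the genes by mean level. The median of the lower genes was 33.4 kb in the tercile with the lowest levels, 40.7 kb in the middle and 29.1 kb in the highest, against 17.9, 23.2 and 16.8 kb for genes not called. For the higher genes the medians were 18.8, 25.2 and 18.3 kb. The median number of exons was 8 in all 3 classes. Protein-coding genes made up 96.9% of the lower genes, 99.0% of the higher and 85.5% of the rest. In the last 500 bases of the transcript, where the reads fall, the GC content had a median of 42.4%, 40.2% and 44.6% in these classes, and the AU-rich motif TATTTAT, given as DNA, was held by 17.3%, 16.2% and 11.5%. No test was made of these differences.

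The promoter sequences of RefSeq (GRCm38.p6, 250 bases before to 50 after the start) were matched for 259 of the lower genes, 71 of the higher and 7631 of the rest. On either strand, the TATA box TATAAA was held by 9.65% of the promoters of lower genes (25 promoters), by 4.23% of those of higher genes (3) and by 6.15% of the rest, against 11.2% of all 16791 promoters in the table. The cAMP response element TGACGTCA, bound by CREB, through which CBP was found, was held by 1.93% (5 promoters), 2.82% (2) and 3.81%, against 2.51% of all. The CCAAT box was held by 30.9%, 46.5% and 39.8%, the GC box GGGCGG by 65.6%, 71.8% and 69.6%, the E-box CACGTG by 12.4%, 5.63% and 10.7% and the AP-1 motif TGANTCA by 4.25%, 2.82% and 4.10%. Overlaps between motifs were not removed, and a match is a stretch of letters, not a site shown to be bound. The CCAAT box was less frequent in lower than in higher genes in each tercile by level (32.5% and 61.9%, 29.7% and 40.0%, 30.9% and 40.0%), but the higher genes of the highest tercile have only 15 promoters. Among the genes named by rule, 5 held a TATA box or a response element in a matched promoter, and the 4 that changed most are shown so that the place of the motif, in capitals, can be seen. They are those of Tgfb2 at chr1:186705940-186706239 (minus strand), Hlf at chr11:90390868-90391167 (minus strand), Trib3 at chr2:152344011-152344310 (minus strand) and Plk2 at chr13:110394794-110395093 (plus strand), each written along the strand of its gene.
Tgfb2: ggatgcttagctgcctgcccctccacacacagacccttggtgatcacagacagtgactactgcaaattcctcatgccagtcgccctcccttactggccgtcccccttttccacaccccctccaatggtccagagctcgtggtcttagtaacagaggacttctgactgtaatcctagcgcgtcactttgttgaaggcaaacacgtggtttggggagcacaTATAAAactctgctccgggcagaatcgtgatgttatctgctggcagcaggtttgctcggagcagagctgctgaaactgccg
Hlf: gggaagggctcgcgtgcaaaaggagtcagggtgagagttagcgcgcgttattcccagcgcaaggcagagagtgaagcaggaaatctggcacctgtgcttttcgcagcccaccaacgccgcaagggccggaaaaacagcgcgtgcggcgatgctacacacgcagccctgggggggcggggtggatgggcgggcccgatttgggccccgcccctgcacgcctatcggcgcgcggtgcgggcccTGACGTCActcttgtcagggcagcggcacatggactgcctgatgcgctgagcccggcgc
Trib3: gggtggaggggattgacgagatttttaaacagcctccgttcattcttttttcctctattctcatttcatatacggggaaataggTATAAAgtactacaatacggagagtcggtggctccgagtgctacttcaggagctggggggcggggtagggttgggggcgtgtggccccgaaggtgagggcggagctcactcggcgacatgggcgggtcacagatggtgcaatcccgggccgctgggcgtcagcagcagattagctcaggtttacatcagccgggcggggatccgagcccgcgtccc
Plk2: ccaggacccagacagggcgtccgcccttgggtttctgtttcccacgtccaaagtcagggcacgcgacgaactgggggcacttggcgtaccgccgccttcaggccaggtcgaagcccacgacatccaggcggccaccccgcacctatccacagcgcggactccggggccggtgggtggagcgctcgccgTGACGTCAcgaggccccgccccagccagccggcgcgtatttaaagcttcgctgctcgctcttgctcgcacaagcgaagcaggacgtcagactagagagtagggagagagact
The TATA box begins 31 bases before the start in Tgfb2 and 166 bases before it in Trib3, and the response element 9 bases before the start in Hlf and 62 in Plk2. Tgfb2, the ligand described above, fell by 2.16 on the log2 scale. Hlf, a PAR-bZIP factor, had 53.4, 39.1 and 40.7 normalised CPM with DMSO and 10.5, 12.4 and 14.9 with A-241 (-1.82, adjusted p = 4.22e-05, edgeR). Trib3, a pseudokinase of the amino acid response, fell by 1.59 and the kinase gene Plk2 by 1.53 (edgeR adjusted p = 0.000163 and 0.000935), each with all A-241 libraries below all DMSO libraries.

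The change was measured a second time by comparing A-241+IFNγ with IFNγ. These 6 libraries enter none of the group means above, but they share in the filter and in the estimate of the spread. A-241 had the same dose and the same 3 h. With IFNγ, 424 genes were lower with A-241 (3.54% of those tested) and 65 were higher (0.543%). Of the 422 genes that were lower at steady state, 265 were also lower with IFNγ, which is 62.8% of the first list and 62.5% of the second, and all 422 had a negative change. Of the 99 higher genes 32 were also higher, which is 32.3% of the first list and 49.2% of the second, and 98 had a positive change. In all, 51.6% of the genes tested had a negative change in the second comparison. The median change of the lower genes was -1.65 without and -1.30 with IFNγ, and that of the higher genes 1.10 and 0.75. Since these genes were chosen by their change without IFNγ, the choice itself enlarges the medians there. The difference between the medians is therefore not a measure of a weaker change with IFNγ. Across all 11964 genes, which are not independent replicates, the changes had a Pearson's r of 0.72. With 1 of the 12 libraries left out, between 155 and 263 genes were lower in both and between 12 and 31 higher in both, the lowest counts without A-241+IFNγ replicate 1.

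With IFNγ the log2 fold change of Has2 was -4.86 (edgeR adjusted p = 1.67e-07), that of Myc -3.64 (edgeR adjusted p = 0.000306), that of Runx1 -3.02 (edgeR adjusted p = 3.25e-07) and that of Timp3 -1.76 (edgeR adjusted p = 3.25e-07). Hexim1 rose by 1.10 (edgeR adjusted p = 6.39e-05), Egr1 by 1.99 (edgeR adjusted p = 6.3e-06) and Mxd1 by 1.85 (edgeR adjusted p = 0.00136). Such genes had the same direction in both settings. Among the libraries with IFNγ alone, replicate 2 stood apart, with 23.0% of its counts from Gm42418. Whether the changes differed was tested as the interaction of A-241 with IFNγ. None of the 521 genes passed an adjusted p of 0.01 with edgeR, the only tool used for this test. Of all 11964 genes tested only 4 passed, and at that share 521 genes would hold few calls, if any. Among the 521 genes 86 (16.5%) had an unadjusted p under 0.05, against 3.36% of all genes. The 521 genes were chosen on a contrast that enters the interaction. Mtfr2 had 14.3, 7.73 and 13.96 normalised CPM with IFNγ alone and 11.5, 11.6 and 13.4 with A-241+IFNγ, and was the gene without a positive change (-0.01). Its libraries with IFNγ alone overlapped those with A-241 alone (15.5, 11.6 and 11.98), and the interaction did not pass the threshold (adjusted p = 0.0458, edgeR). Ccnd1 fell by 1.11 with IFNγ, and its interaction did not pass either (adjusted p = 0.04, edgeR). Ephb3 changed by -0.04 and Wnt7b by -0.46 with IFNγ (interaction adjusted p = 0.152 and 0.148, edgeR), from 24.9, 29.4 and 30.2 and 51.3, 51.7 and 62.98 normalised CPM with IFNγ alone.

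**Figure D4:**
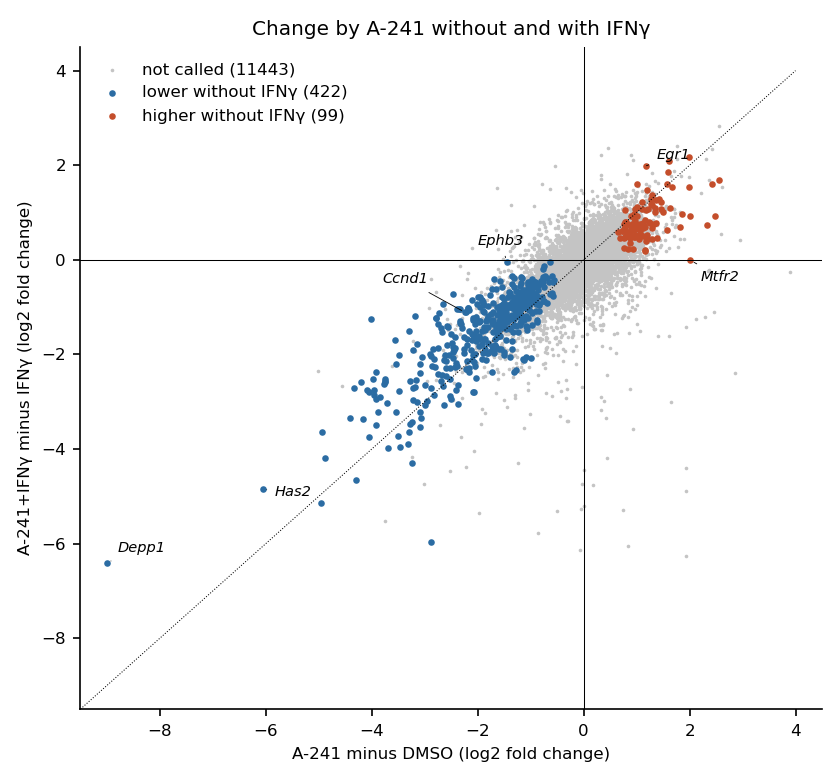
Log2 fold change of each gene tested by A-241 without IFNγ (horizontal axis, A-241 minus DMSO) and with IFNγ (vertical axis, A-241+IFNγ minus IFNγ), with the line of equal change dotted. Blue and red points are the 422 genes called lower and the 99 called higher without IFNγ. All blue points lie below 0 on the vertical axis, and Mtfr2 is the red point that does not lie above it.

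A-485, another catalytic inhibitor of P300 and CBP, was used at 1000 nM and was compared with the same DMSO libraries, so its values are set beside those of A-241 without a comparison. Tle3 had log2 fold changes of -3.96 with A-241 and -3.22 with A-485, Inhbb of -2.61 and -2.50, Hlf of -1.82 and -1.85 and Vdr of -2.54 and -2.38. Those of Myc were -4.93 and -0.95, of Has2 -6.06 and -0.61, of Fst -3.93 and -0.75, of Sostdc1 -4.06 and -0.22, of Cxcl5 -4.09 and 0.11 and of Cpeb4 1.28 and -0.05. The doses of the compounds differ, and the test between them is not reported here.

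**Figure D5:**
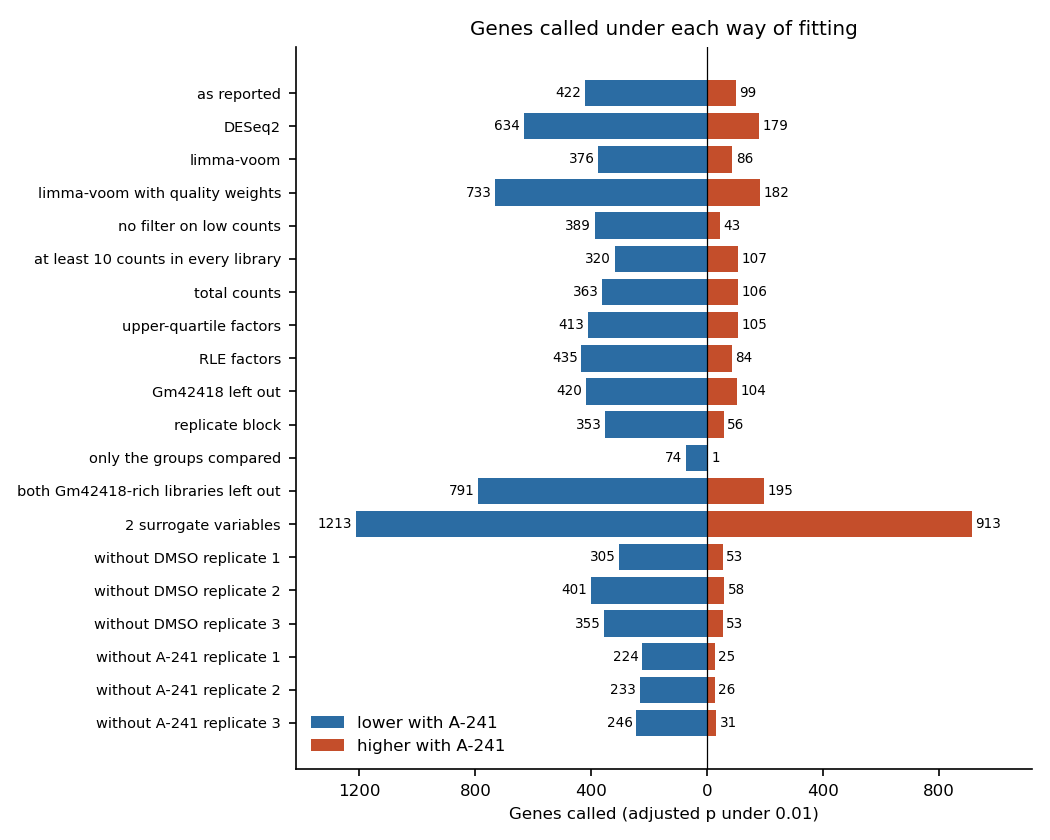
Number of genes called lower (blue, to the left of 0) and higher (red, to the right) with A-241 than with DMSO at an adjusted p under 0.01, for the fit reported and for each other way of fitting. Lower genes outnumber higher genes in every bar, from 74 and 1 when only the groups compared were fitted to 1213 and 913 with 2 surrogate variables.

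Of the 103 genes that were named by rule and called, 62 were called with any 1 of the 6 libraries left out, 54 of the 81 lower and 8 of the 22 higher. Over all genes called, the same held for 199 of the 422 lower (47.2%) and 12 of the 99 higher (12.1%). None of the named genes that were called changed direction under any alternative. In the fit of these 6 libraries on their own, 30 of the lower genes and 1 of the higher passed the threshold, among them Has2, Runx1, Fst, Notch1, Jag1, Tle3, Ccnd1, Scd1 and Hexim1 but not Myc, Klf4, Cxcl5 or Egr1. Some of the genes named share exon bases with another annotated gene, so that reads could be split or lost between them. Besides those marked above, these are Thbs1, Klf3, Sox4, Id4, Tgfb2, Wnt7b, Scd2, Phlda1, Pdgfa, Fn1, Palmd, Hook1, Papolg, Zfp335, Foxq1, Top2a and Ep300.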

How the data were processed

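Cells of the AT3 line were profiled by QuantSeq 3′ RNA sequencing in 18 libraries, 3 for each of 6 treatments. Per the submitters' processing notes, reads were demultiplexed with bcl2fastq 2.17.1.14, checked with FastQC 0.11.5, trimmed with cutadapt 1.7, aligned to GRCm38 (mm10) with HISAT2 2.1.0 and counted with featureCounts. The authors deposited raw counts per gene and library, with no molecular identifiers.

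Here, gene names and positions came from the GENCODE vM21 annotation, which matched 42548 of 43629 identifiers. The unmatched rows held between 0.377% and 0.451% of the counts. Genes were filtered with filterByExpr of edgeR 4.0.16 (R 4.3.3), scaled by TMM factors and tested with glmQLFTest over all 18 libraries with 1 mean per group, with Benjamini-Hochberg adjustment of p-values. Normalised CPM are counts scaled to 1000000 per TMM-scaled library. The test was checked on simulated data. Named genes were the 20 largest decreases and 15 largest increases with a mean of at least 50 counts in the group with more and no overlap of the groups, up to 4 called members per list with at least 20 counts, the most abundant member not called, and 6 fixed genes. Tcf7l2, Tead4, Edn1, Clspn and Tnfaip2 fall outside this rule and were named after their values were seen. The members and lists were chosen with earlier results of these data known. Alternatives used DESeq2 1.42.0, limma-voom (limma 3.58.1), which the study used, surrogate variables from sva 3.50.0, other scalings and filters, and left out libraries. Results for a few genes are not reported here.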

Additional observations from a re-analysis of the deposited data

How the results depend on the processing

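The 422 lower and 99 higher genes, of which 265 and 32 were also called with IFNγ, became 634 and 179 with DESeq2 (74 higher in both), 733 and 182 with quality weights in limma-voom (446 and 85 in both), and 43 higher (16 in both) without a filter on low counts. Fitting only the groups compared gave 74 lower and 1 higher (27 and 0 in both, with edgeR; of that 0, no other tool was run on these groups), leaving out DMSO replicate 3 and IFNγ replicate 2, the libraries rich in Gm42418, 791 and 195 (455 and 77), and 2 surrogate variables 1213 and 913 (736 and 312), with 57.1% of the calls lower against 81.0%. An adjusted p under 0.05 gave 742 and 343 (456 and 129), an unadjusted p under 0.01 926 and 504 (559 and 205), and a log2 change over 1 left 61 higher. With 1 library left out the counts ranged from 224 to 401 lower, 25 to 58 higher, 155 to 263 lower in both and 12 to 31 higher in both. They were 224 and 25, 233 and 26, and 246 and 31 without A-241 replicates 1, 2 and 3, and higher genes numbered 53, 58 and 53 without DMSO replicates 1, 2 and 3. Without IFNγ replicate 2, which enters this comparison only through the shared spread, 626 were lower and 175 higher. The cause of these shifts was not tested.

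Replicate numbers did not pair the libraries, the same-number correlations of deviations being 0.27, -0.16 and -0.02, and only replicate 1 of each group correlated best with its own number. A replicate block gave 353 lower and 56 higher, and 202 and 18 in both. Of the values of named genes under the alternatives, 1770 kept their direction and side of the threshold, 284 lost and 11 gained a call, and 0 changed sign. Counts under 3 per library limit what can be said of genes near 0.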

Other observations

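Some genes of the clock, of stress responses and of transport also fell after A-241 at steady state, those of transport at a share near that of all genes tested. Of 13 clock and PAR-bZIP genes tested, 3 fell (23.1%, against 3.53% of all genes tested), namely Hlf, Bhlhe41 and Tef. The median log2 fold change of the list was -0.48. Bhlhe41, a repressor of clock genes also known as DEC2, had 45.01, 51.5 and 29.6 normalised CPM with DMSO and 14.3, 15.2 and 15.3 with A-241 (log2 fold change -1.501, SE 0.21, edgeR adjusted p = 0.000248). It was called with any 1 of the 6 libraries left out, but Tef (-0.76) was no longer called after omission of any 1 of 4 libraries, such as A-241 replicate 1 (edgeR adjusted p = 0.0304). Of 30 genes of the unfolded protein and amino acid responses, Nupr1, a stress-induced chromatin protein, and Trib3 fell, which is 6.67% against 3.53% of all genes tested. The median was -0.10, which turned positive with total counts (0.02) and with 2 surrogate variables (0.04). None of 16 heat shock genes was called with edgeR, DESeq2 or limma-voom (0 were lower and 1 higher at an unadjusted p under 0.05). At the shares of all genes tested, 3.53% lower and 0.827% higher, a list of 16 would hold few calls. Nupr1 had 15.4, 17.8 and 21.4 normalised CPM with DMSO and 5.66, 4.597 and 4.84 with A-241 (log2 fold change -1.84, adjusted p = 5.53e-05, edgeR). Among 25 p53 target genes 3 fell (12%, against 3.53% of all genes tested), Phlda3 by 1.87, Plk2 by 1.53 and Aen by 0.94. The median of the list was -0.34. The list was mixed, with 7 members lower and 5 higher at an unadjusted p under 0.05. The call of Phlda3 was lost without 1 library, A-241 replicate 1 (edgeR adjusted p = 0.0108), and that of Aen with any 1 of 3, such as A-241 replicate 2 (edgeR adjusted p = 0.0156).

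Of 139 solute carrier genes 6 fell, which is 4.32% against 3.53% of all genes tested, among them the nucleoside transporter Slc29a2 (-2.80), the inositol transporter Slc5a3 (-1.87) and the neutral amino acid transporter Slc1a4 (-1.604), each called with any library left out, whereas the median of the list was -0.07, and 0.03 with total counts. Bcl3, an atypical inhibitor of NF-κB that acts in the nucleus, had 13.3, 12.8 and 9.998 normalised CPM with DMSO and 2.94, 2.998 and 0.841 with A-241 (log2 fold change -2.40, adjusted p = 0.000289, edgeR) and was, with Tnfaip2, the only gene that edgeR called among 14 of the NF-κB pathway. Bcl2l1, which encodes the survival protein BCL-XL, fell by 1.05 (edgeR adjusted p = 0.00718) and was no longer called after omission of any 1 of 5 libraries, such as A-241 replicate 3 (edgeR adjusted p = 0.0427). Among C2H2 zinc finger genes of the Zfp family 4 rose (1.66% of those tested, against 0.827% of all genes) and 2 fell (0.83% against 3.53%), with a median of 0.15, and 39 were higher and 17 lower at an unadjusted p under 0.05. The counts and medians of these lists are descriptions, and the cause of these changes was not tested.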
